A study of Mus musculus with 20 samples.

Results

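The 35 genes described here are imprinted genes of the mouse. They were named in a list made for this work, and all 35 were rows of the RNA table of 23366 genes. Of them, 11 are classed here as expressed from the maternal allele and 23 from the paternal allele. Gnas, expressed from either allele depending on the transcript and tissue, is in neither class. Every other gene keeps the same class for all its transcripts and tissues. After the filter on low counts 34 remained; Snrpn, which encodes a spliceosomal protein, had 2 to 7 counts per stage, summed over its libraries, and was not tested.

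Genomic imprinting is the expression of a gene from only the maternal or only the paternal copy. The choice follows DNA methylation marks that are erased in the germ line and laid down again according to the sex of the parent, at most imprinted loci in the oocyte and at a few, among them H19/Igf2, Dlk1-Dio3, Rasgrf1 and Zdbf2, in the male germ line before birth. Many imprinted genes act on fetal and placental growth, and they lie in clusters that mix protein-coding genes, long noncoding RNAs and microRNAs (miRNAs). The germ cells of day 1 to day 7 testis and meiotic spermatocytes therefore come from the time after the paternal marks are set.

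All mice were wild-type C57BL/6J. Whole testes were taken 1, 3 and 7 days after birth. Leptotene/zygotene spermatocytes, which are entering meiosis, and pachytene spermatocytes, which are at the long later step of meiotic prophase, were separated from adult testes of mice 70 to 80 days old by sedimentation at unit gravity (STA-PUT), and their purity, given as about 90% or more, was judged under the microscope. Each of the 5 stages had 2 biological replicates for RNA sequencing and 2 for small RNA sequencing. Because the strain is inbred, the counts do not distinguish the parental alleles. Maternal and paternal below name the allele generally described as expressed in the mouse, not one measured here. In such bulk samples, fewer cells of a type and less RNA per cell cannot be told apart. Between whole testis and the spermatocytes, the cells present, the age of the mice and the separation step differ together and cannot be told apart either.

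RNA libraries held 3597360 to 22181395 reads on genes and small RNA libraries 112967 to 11061273 reads on seeds, a seed being bases 2 to 8 of a small RNA. Values are read counts scaled to library size (CPM, on normalized library sizes), not divided by gene length, so that levels are compared between libraries and not between genes. Calls are at an adjusted p under 0.05 in edgeR's quasi-likelihood test with Benjamini-Hochberg adjustment over all genes or seeds. With 2 libraries per stage, no spread within a stage rests on more than 1 difference. Both leptotene/zygotene libraries held RNA of spermatid genes: the 6 spermatid markers summed to 35570 and 42660 CPM there, to 4554 and 3013 CPM in pachytene and to at most 21.6 CPM in testis, and none of the 6 was at 0 in either cell type. The first leptotene/zygotene library also held more somatic RNA than the second: the 11 Sertoli markers summed to 184 against 64.0 CPM and the 6 stromal markers to 50.1 against 23.5 CPM, with 350 and 251 CPM, and 26.2 and 8.53 CPM, in pachytene. The counts of members called, and the members that rose, are therefore also given with pachytene in place of leptotene/zygotene. The first day 3 library stood below the second for several members, among them Peg3 (168 against 551 CPM), Zim1 (19.4 against 110 CPM), Kcnq1ot1 (9.79 against 44.5 CPM), Ppp1r9a (108 against 239 CPM) and Zdbf2 (49.1 against 85.3 CPM).

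Imprinted transcripts were a visible part of the RNA of neonatal testis and a very small part of that of spermatocytes. Of all reads on genes, the 35 took 1.23% and 1.13% in the libraries of day 1, 1.14% and 1.05% in those of day 3, and 0.594% and 0.612% in those of day 7. Leptotene/zygotene cells gave 0.0390% and 0.0311%, pachytene cells 0.0480% and 0.0388%. The libraries of day 7 lie below all those of days 1 and 3, and the spermatocyte libraries lie far below these. The composition changed as well: H19 gave the most member reads at days 1 and 3, Gnas at day 7, Zdbf2 in leptotene/zygotene (31.6% and 42.9% of member reads) and Asb4 in pachytene (32.4% and 29.4%). In the 6 testis libraries, maternally expressed genes gave 42.9% to 48.9% of the maternal and paternal reads together. Leptotene/zygotene libraries gave 42.0% and 39.8%, pachytene libraries 61.9% and 58.6%. Asb4 held 350 of 547 and 1633 of 2408 maternal reads in the former, 999 of 1821 and 1059 of 1986 in the latter. Zdbf2 held 443 of 754 and 2738 of 3649 paternal reads, then 505 of 1121 and 772 of 1401. The spermatocyte shares thus rest largely on Asb4 and Zdbf2, and a shift of the maternal genes as a class was not tested.

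**Figure D1:**
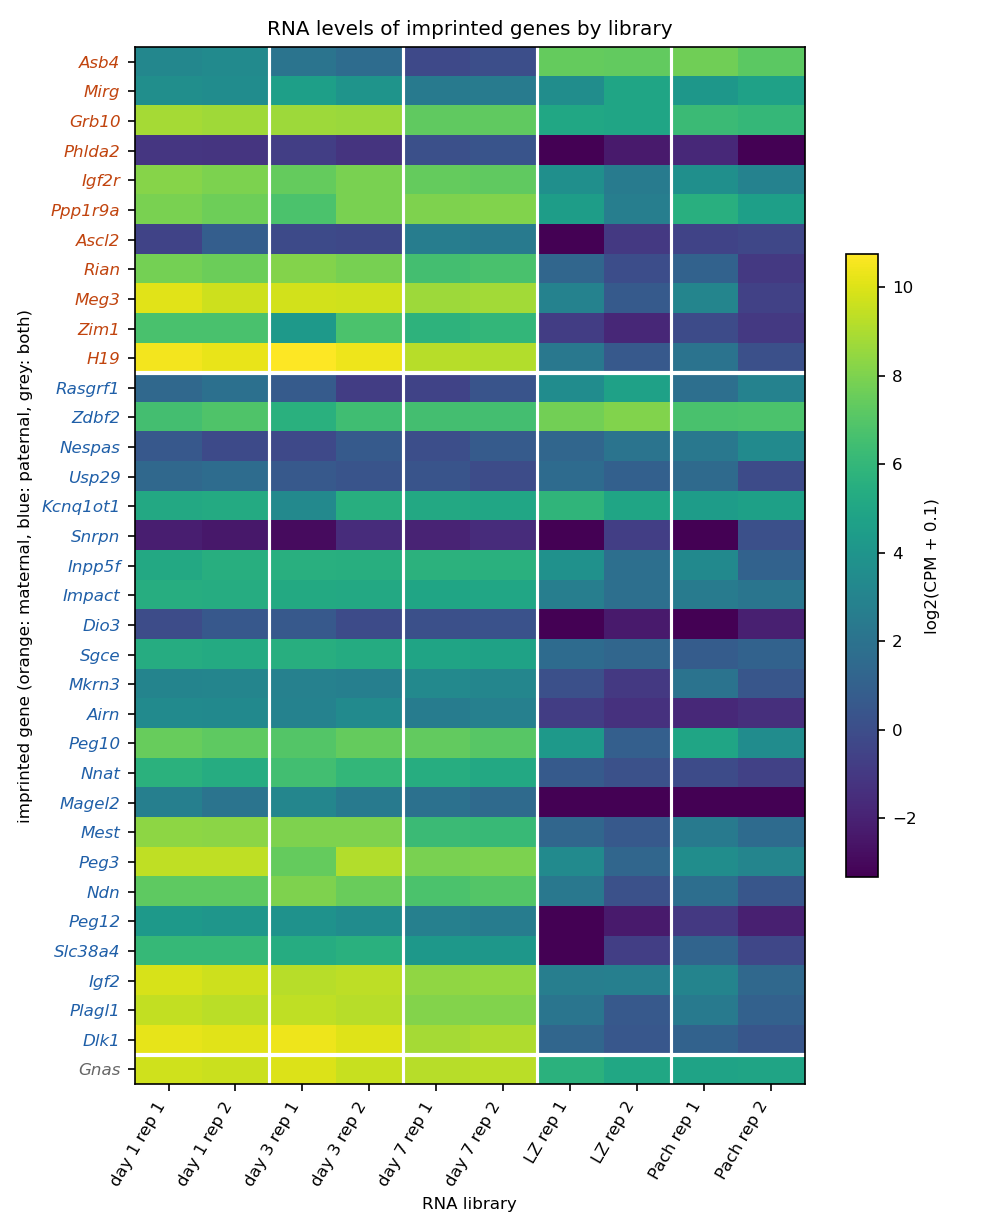
RNA level of each of the 35 imprinted genes (rows, log2 of CPM plus 0.1) in each of the 10 RNA libraries (columns; LZ, leptotene/zygotene; Pach, pachytene). Most rows are bright in the 6 testis libraries and dark in the 4 spermatocyte libraries; Asb4, Zdbf2, Rasgrf1, Mirg and Nespas are brighter in leptotene/zygotene than at day 7.

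The sequences below show the miRNAs that mark the imprinted clusters in the small RNA data and the promoters of the genes that behaved differently from each other in the RNA data. miRNAs are small RNAs that pair with messenger RNAs mainly through the seed, and the small RNA table counts reads by seed. The mature sequences are from RefSeq (GRCm38.p6), with the seed in capitals. The first 3 lie in the Dlk1-Dio3 cluster on chromosome 12 upstream of the gene Mirg, the next 3 lie within Mirg, and the last 3 lie in the Gnas cluster on chromosome 2 and in Mest on chromosome 6.
miR-127-3p (chr12:109592888-109592909, plus strand): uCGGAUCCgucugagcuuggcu
miR-434-3p (chr12:109594565-109594586, plus strand): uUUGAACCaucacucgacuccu
miR-136-5p (chr12:109595331-109595352, plus strand): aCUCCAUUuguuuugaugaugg
miR-541-5p (chr12:109742422-109742446, plus strand): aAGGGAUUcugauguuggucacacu
miR-409-5p (chr12:109743172-109743194, plus strand): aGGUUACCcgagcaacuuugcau
miR-409-3p (chr12:109743204-109743225, plus strand): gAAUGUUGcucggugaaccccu
miR-296-5p (chr2:174267093-174267113, minus strand): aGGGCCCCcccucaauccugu
miR-298-5p (chr2:174267553-174267575, minus strand): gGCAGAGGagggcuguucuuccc
miR-335-5p (chr6:30741314-30741336, plus strand): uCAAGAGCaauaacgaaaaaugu

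No seed is shared among these 9. The imprinted clusters listed here hold 57 miRNA genes with 109 mature miRNAs and 101 seeds. For 11 of those seeds a miRNA elsewhere in the genome has the same 7 letters, and they were set aside. Of the 90 left, 88 were in the table and 59 passed the filter on low counts, 52 of them from Dlk1-Dio3. Seeds were compared with those of mature miRNAs only. Whether other small RNAs add to the reads of a seed was not tested.

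The promoters shown are the 250 bases before a RefSeq start (GRCm38.p6, plus strand for all 3), with matches to TGACGTCA in capitals. This palindrome is the full cAMP response element, the site of the CREB/CREM family, whose member CREM is active in spermatids; it occurs in 1.55% of 32851 RefSeq promoter windows of this length. Meg3 is shown as the first RNA of the maternally expressed Dlk1-Dio3 array, which fell between day 7 testis and spermatocytes, and Zdbf2 and Asb4 because each gave the most member reads in 1 spermatocyte stage.
Meg3 (chr12:109540746-109540995): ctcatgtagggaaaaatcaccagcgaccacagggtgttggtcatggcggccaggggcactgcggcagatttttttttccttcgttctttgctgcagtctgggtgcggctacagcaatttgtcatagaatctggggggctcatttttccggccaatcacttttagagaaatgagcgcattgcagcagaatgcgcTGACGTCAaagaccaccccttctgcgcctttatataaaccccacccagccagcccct
Zdbf2 (chr1:63273019-63273268): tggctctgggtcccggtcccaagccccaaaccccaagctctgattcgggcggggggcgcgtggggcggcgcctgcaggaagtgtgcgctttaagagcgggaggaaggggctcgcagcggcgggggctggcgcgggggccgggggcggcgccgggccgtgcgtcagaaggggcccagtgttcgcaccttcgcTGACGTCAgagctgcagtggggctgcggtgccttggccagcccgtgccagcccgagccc
Asb4 (chr6:5383136-5383385): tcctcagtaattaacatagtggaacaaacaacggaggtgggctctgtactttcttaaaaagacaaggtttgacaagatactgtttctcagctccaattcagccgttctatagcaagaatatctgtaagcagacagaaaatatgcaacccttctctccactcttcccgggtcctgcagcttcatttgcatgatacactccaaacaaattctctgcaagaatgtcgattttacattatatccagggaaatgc

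Meg3, which fell, and Zdbf2, which was higher in leptotene/zygotene, each hold 1 such match, and Asb4 holds none. The other 2 sequences searched, on both strands, were CAGTTG (11.1% of windows) and GTTGCC (10.4%), which factors of the MYB and RFX families bind, and none of the 3 windows holds either. The windows hold 10 CpG in Meg3, 26 in Zdbf2 and 4 in Asb4, beside a median of 6 over all windows. Of the 35 genes 30 had a promoter in the table; Peg3 was the only other member with TGACGTCA in a window. Meg3, Zdbf2 and Asb4 have a further RefSeq start each, with 0, 13 and 8 CpG and no match to any of the 3 motifs.

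In whole testis most imprinted genes had lower values at day 7 than at day 1, few of them past the test. The test over all 10 libraries called 5 of 34 members lower and 1 higher between day 1 and day 7, where 2.28% of all 16872 genes tested were lower and 1.08% higher. Those that fell were Asb4, Mest, Slc38a4, Peg12 and Grb10, and Ascl2 rose. The median log2 difference between day 7 and day 1 was -0.72 over the members and 0 over all genes. The members' libraries did not overlap, with both day 7 values below both day 1 values, for 23 of 34 genes (35.5% of all genes), and lay above them for 5 (35.8% of all genes).

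Mest, an alpha/beta hydrolase gene expressed in mesodermal tissue, stood at 323 and 314 CPM at day 1, 258 and 261 CPM at day 3 and 77.9 and 71.5 CPM at day 7. Its level was thus close to that of day 1 at day 3, and the day 7 libraries lay well below. The fall was -2.09 ± 0.29 on the log2 scale (SE; edgeR adjusted p = 0.010). Grb10, an adaptor that restrains insulin and growth factor signalling, had 463 and 424 CPM at day 1, 410 and 389 CPM at day 3 and 160 and 159 CPM at day 7. It shows the same step after day 3, at -1.48 ± 0.22 from day 1 to day 7 (edgeR adjusted p = 0.012). Slc38a4, an amino acid transporter, went from 68.3 and 68.0 CPM through 41.2 and 49.3 CPM to 17.8 and 17.1 CPM. The stages of Slc38a4 did not overlap, and the log2 change from day 1 was -1.97 ± 0.37 (edgeR adjusted p = 0.028). Peg12, a gene of the Frat family, had 19.5 and 16.5, then 14.2 and 11.6, then 7.00 and 5.83 CPM, also without overlap, a change of -1.48 ± 0.33 (edgeR adjusted p = 0.043).

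Asb4, which encodes a substrate adaptor of ubiquitin ligases, had the largest fall of the 34 in testis. It stood at 8.87 and 10.7 CPM at day 1, at 4.10 and 3.01 CPM at day 3 and at 0.772 and 0.921 CPM at day 7. The log2 change from day 1 to day 7 was -3.52 ± 0.33 (edgeR adjusted p = 0.0050). Ascl2, a basic helix-loop-helix transcription factor required in the placenta, moved the other way, from 0.616 and 1.73 CPM at day 1 and 0.799 and 0.732 CPM at day 3 to 6.07 and 5.40 CPM at day 7. Its rise from day 1 was 2.23 ± 0.51 on the log2 scale (edgeR adjusted p = 0.047). Each of these 6 calls was lost when any 1 of the 4 libraries of days 1 and 7 was left out, while the log2 change of Asb4 stayed between -3.73 and -3.39 and that of Ascl2 between 1.64 and 3.18.

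Between day 3 and day 7 the test called Mest (-1.80 ± 0.28, edgeR adjusted p = 0.023), Grb10 (-1.33 ± 0.21, adjusted p = 0.026) and Asb4 (-2.08 ± 0.32, adjusted p = 0.023) lower and Ascl2 higher (2.88 ± 0.51, adjusted p = 0.032), beside 0.563% and 0.931% of all genes. Each of these 4 calls was also lost when single libraries were left out: that of Ascl2 without any 1 of the 6 testis libraries (log2 change 2.64 to 2.86), that of Mest without any 1 of them but the second of day 3 (-2.01 to -1.87), that of Grb10 without any 1 library of days 1 and 7 (-1.48 to -1.46) and that of Asb4 without the first library of day 3 or either of day 7 (-2.35 to -1.91). Between day 1 and day 3 edgeR called no member and none of the 16872 genes (0%); at an unadjusted p under 0.05 there were 4 members and 1097 genes, and with DESeq2 1 member, Asb4, and 79 genes. A fit on the 6 testis libraries alone, in which the spermatocytes do not enter the estimate of the spread, called 14 members lower and 1 higher from day 1 to day 7 (10.4% and 9.03% of 15233 genes) and 15 lower and 1 higher from day 3 (7.35% and 6.6%). The day 1 list then also held H19, Igf2, Dlk1, Meg3, Rian, Mirg, Plagl1, Igf2r and Usp29.

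H19, a noncoding RNA next to Igf2, was at 1416 and 1242 CPM at day 1, 1710 and 1329 CPM at day 3 and 591 and 556 CPM at day 7. Igf2, the fetal growth factor, was at 941 and 820, 599 and 647, and 337 and 352 CPM. In both genes of this pair, of which one is expressed from each parental allele, day 7 lay below all 4 earlier libraries. The fit on all libraries gave -1.21 ± 0.48 for H19 (edgeR adjusted p = 0.21) and -1.36 ± 0.37 for Igf2 (adjusted p = 0.077), and the testis fit -1.19 ± 0.17 and -1.33 ± 0.14 (adjusted p = 0.0060 and 0.0025). Igf2r, the receptor that clears this growth factor, had 291 and 250, 173 and 245, and 173 and 155 CPM. Its day 7 libraries lay below day 1, and one of them above the first day 3 library. Airn, the antisense RNA that overlaps Igf2r, had 10.6 and 10.3, 7.32 and 10.7, and 5.90 and 6.75 CPM; whether the counting used strand is not given in the sources used here, so that reads of Airn and Igf2r in their overlap cannot be told apart. The same holds for Nespas and Gnas, Kcnq1ot1 and Kcnq1, and Usp29 and Peg3.

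Dlk1, a transmembrane protein of the Notch ligand family, had 1203 and 1099 CPM at day 1, 1314 and 1074 CPM at day 3 and 454 and 537 CPM at day 7. Plagl1, a zinc-finger transcription factor, had 712 and 633, 666 and 611, and 275 and 267 CPM. Peg3, a zinc-finger gene, had 685 and 681 CPM at day 1, 168 and 551 CPM at day 3 and 242 and 254 CPM at day 7. In all 3 the day 7 libraries lay below those of day 1, and none was called in the fit on all libraries (edgeR adjusted p = 0.056, 0.11 and 0.21). Other members stayed near their day 1 level. Ppp1r9a, which encodes the actin-binding protein neurabin, had 236 and 198 CPM at day 1 and 264 and 271 CPM at day 7. Zdbf2, a zinc-finger protein gene, had 94.4 and 118 CPM and then 94.6 and 92.1 CPM. Peg10, derived from a retrotransposon, had 177 and 153 and then 161 and 136 CPM, and Inpp5f, an inositol phosphatase, had 35.5 and 45.4 and then 52.2 and 48.1 CPM. In the fit on all libraries their log2 changes from day 1 ranged from -0.18 for Zdbf2 to 0.31 for Inpp5f and were within 1 SE of 0. The testis fit gave 0.33 ± 0.15 for Inpp5f (edgeR adjusted p = 0.16), while Ppp1r9a, Zdbf2 and Peg10 were again within 1 SE. Both day 7 libraries of Ppp1r9a and Inpp5f lay above both of day 1, as for 35.8% of all genes.

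Markers of other cells moved over the same days. The 6 stromal markers summed to 10330 and 8485 CPM at day 1, 9413 and 10580 CPM at day 3 and 4641 and 4922 CPM at day 7, and the 7 Leydig markers to 1024 and 864 CPM at day 1 and 366 and 549 CPM at day 7. The 11 Sertoli markers summed to 4233 and 3751 CPM and then 4774 and 4970 CPM, and the 7 spermatogonial markers to 154 and 249 CPM and then 717 and 643 CPM. No marker of these 4 lists was at 0 in either spermatocyte stage. The part of these shifts in the members' falls was not tested.

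**Figure D2:**
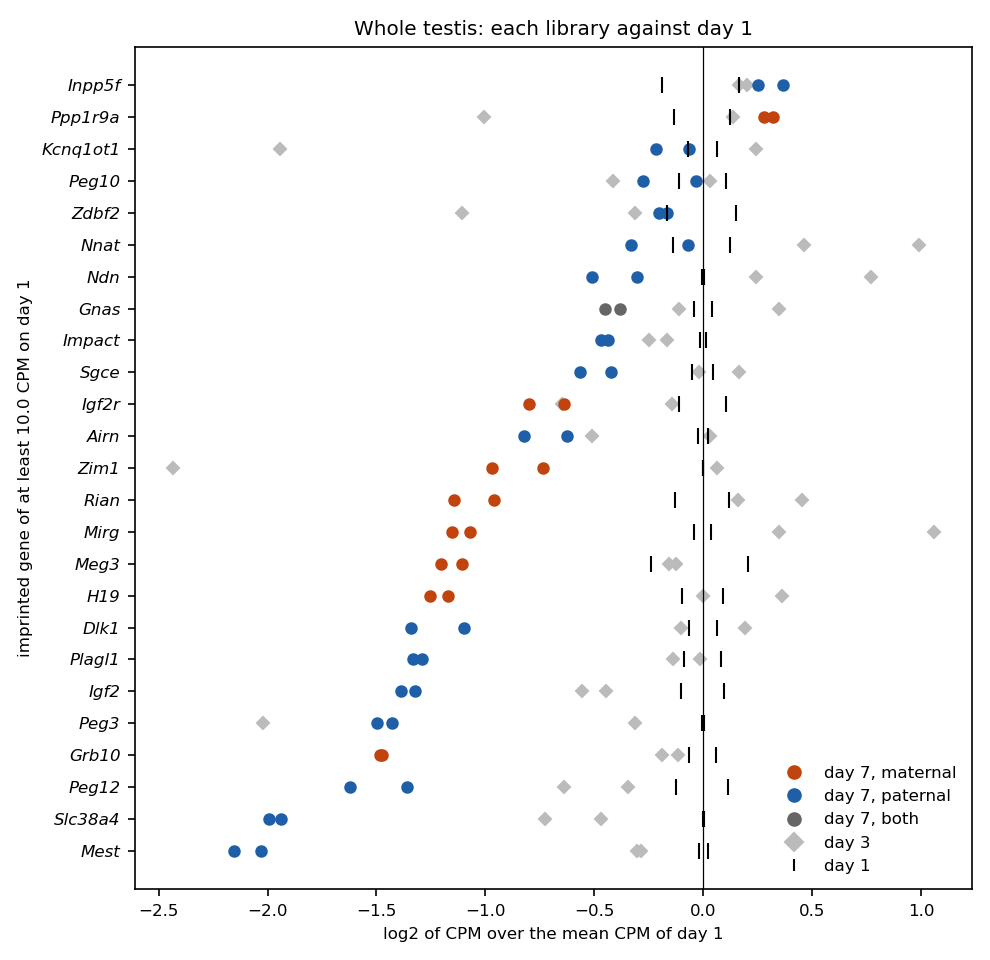
Level of the 25 imprinted genes of at least 10 CPM at day 1 in each whole-testis library, as log2 of its CPM over the mean CPM of day 1 (horizontal axis). Day 7 points (coloured by expressed allele) lie below both day 1 ticks for 19 of the 25 genes; the isolated grey points at -1 to -2.4 for Zim1, Peg3, Kcnq1ot1, Zdbf2 and Ppp1r9a are the first day 3 library.

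Leptotene/zygotene cells held far less of most imprinted RNAs than day 7 testis. Of 34 members 27 were lower and 5 higher, where 42% and 36.5% of all genes tested were lower and higher. The median log2 difference was -4.19 over the members and -0.31 over all genes; with median-ratio size factors it was -3.89 and 0.01, and with plain library sizes -5.57 and -1.71. The 27 members that fell were also lower, and called, in pachytene cells against day 7 testis (40.1% of all genes lower), and 4 of the 5 that rose were also higher there (35.1% of all genes higher). Among the 34 members Usp29, a ubiquitin protease gene, and Kcnq1ot1 were not called in leptotene/zygotene. Marker lists of cell types differed too, with medians of -5.27 (Sertoli), -5.32 (Leydig), -3.32 (peritubular), -6.53 (stroma), -3.05 (endothelial), -2.66 (macrophage) and -2.77 (spermatogonia). Those of spermatocyte and spermatid markers were 4.70 and 13.61, and the 1 tested erythroid marker differed by 0.13. The 7 spermatogonial markers did not move together, with 5 called lower and 1 higher. Their sum was 717 and 643 CPM at day 7, 960 and 1115 CPM in leptotene/zygotene and 1129 and 1006 CPM in pachytene. The part of cell composition in the members' falls was not tested.

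Several members had few reads left in spermatocytes. H19 had 4.86 and 1.40 CPM in leptotene/zygotene and 4.07 and 0.963 CPM in pachytene, against 591 and 556 CPM at day 7. The first library of each cell type was the higher one, as for the Sertoli and stromal marker sums, and both were far below day 7 (-7.90 ± 0.70, edgeR adjusted p = 5.5e-06). The part of somatic RNA in these remaining levels was not tested. Dlk1 had 2.43 and 1.3 CPM and then 2.03 and 1.24 CPM in the same 4 libraries (-8.27 ± 0.43, edgeR adjusted p = 3.7e-07). Plagl1 had 4.38 and 1.40 CPM, then 5.29 and 1.93 CPM (-6.93 ± 0.57, edgeR adjusted p = 3.5e-06). Igf2 had 6.32 and 6.51 CPM, then 7.93 and 2.61 CPM (-5.74 ± 0.47, edgeR adjusted p = 3.1e-06); its leptotene/zygotene libraries lay close together, unlike those of H19. Peg3, Mest, Ndn and Nnat, encoding a zinc-finger protein, a hydrolase, a protein of the MAGE family and a small membrane protein of the endoplasmic reticulum, had 1.0 to 10.7 CPM in leptotene/zygotene and log2 differences of -5.57, -5.48, -5.83 and -5.15, beside -4.61, -4.19, -5.77 and -5.89 for pachytene against day 7.

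Other members fell less. Gnas, which encodes the stimulatory G protein alpha subunit, had 50.1 and 33.3 CPM in leptotene/zygotene and 28.9 and 29.0 CPM in pachytene, against 593 and 621 CPM at day 7 (-3.89 ± 0.32, edgeR adjusted p = 3.1e-06). Grb10 had 33.5 and 30.3 CPM and then 75.4 and 67.0 CPM, against 160 and 159 CPM at day 7, the smallest fall of the 27 (-2.32 ± 0.23, edgeR adjusted p = 1.0e-05), and one of -1.16 ± 0.22 in pachytene (adjusted p = 0.00078). Impact, a regulator of translation under amino acid shortage, had 6.32 and 3.41 CPM and then 5.69 and 4.40 CPM, against 30.6 and 31.3 CPM (-2.82 ± 0.33). Inpp5f had 13.6 and 3.41 CPM and then 10.2 and 2.06 CPM (-2.79 ± 0.71), with the first library of each cell type the higher one. Sgce, the epsilon-sarcoglycan gene, had 2.92 and 2.40 CPM and then 1.63 and 2.06 CPM (-3.49 ± 0.30). Igf2r (-4.30 ± 0.43), Airn (-4.19 ± 0.51), Ppp1r9a (-4.34 ± 0.64) and Peg10 (-4.19 ± 0.87) are further examples, with -4.05, -4.63, -2.94 and -2.82 in pachytene, and in Peg10 the first leptotene/zygotene library had 18.5 CPM and the second 1.80 CPM.

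Members with few reads in the spermatocyte libraries are given as counts. Magel2, of the MAGE family, had 113 counts over both day 7 libraries and 0 in leptotene/zygotene and in pachytene; at a floor of 3 counts over the group it was at least 13.2-fold lower in leptotene/zygotene. Zim1, a zinc-finger gene, had 3 counts in leptotene/zygotene against 1999 at day 7, a ratio of 0.00429 after scaling (exact conditional 95% interval 0.000884 to 0.0126, counting error only). Peg12 had 1 count against 222 (0.0129, interval 0.000325 to 0.0725), Dio3, a thyroid hormone deiodinase, 1 against 35 (0.0817, interval 0.00201 to 0.486) and Phlda2, which restrains placental growth, 1 against 37 (0.0773, interval 0.00191 to 0.458). Slc38a4 had 5 counts, Mkrn3, a ring-finger protein gene, 6, and Ascl2 4, against 601, 319 and 198 at day 7. Against day 7 Mkrn3 differed by -4.11 on the log2 scale in leptotene/zygotene and by -1.86 ± 0.49 in pachytene. The calls for Dio3 and Phlda2 were lost without the second leptotene/zygotene library (edgeR adjusted p = 0.091 and 0.082).

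**Figure D3:**
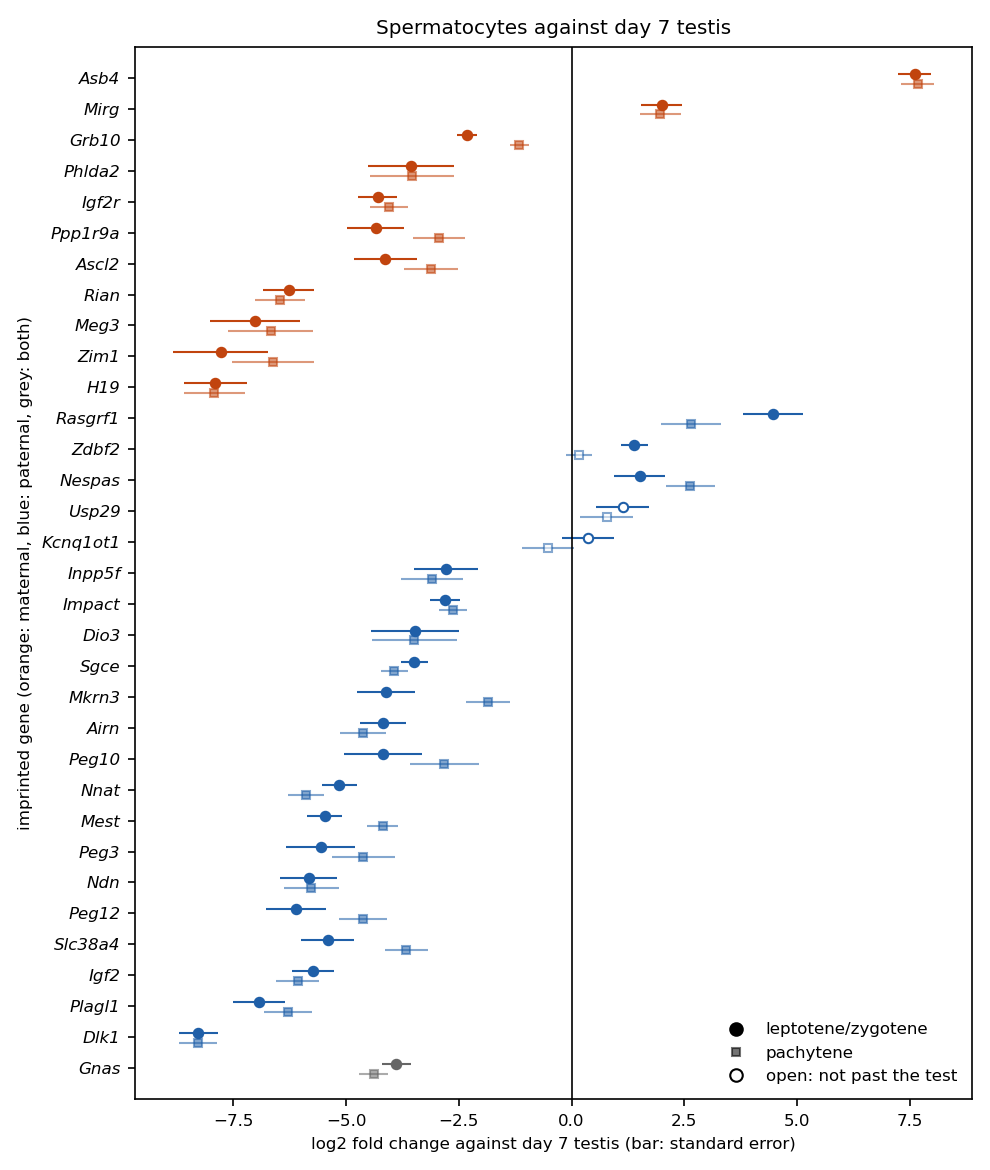
Log2 fold change against day 7 testis, with its standard error, in leptotene/zygotene (circles) and pachytene (squares) for the 33 tested imprinted genes with at least 1 read in leptotene/zygotene; open symbols are not past the test. Asb4, Mirg, Rasgrf1 and Nespas lie to the right of 0 in both cell types, and Zdbf2 in leptotene/zygotene.

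Asb4 rose more than any other member. After its decline in testis to 0.772 and 0.921 CPM it had 170 and 164 CPM in leptotene/zygotene and 203 and 146 CPM in pachytene. Every spermatocyte library was above every testis library, of which those of day 1 were the highest, at 8.87 and 10.7 CPM. Against day 7, its lowest stage, the log2 difference was 7.61 ± 0.36 in leptotene/zygotene (edgeR adjusted p = 3.0e-07) and 7.67 ± 0.36 in pachytene (adjusted p = 5.4e-07). Its level in the 2 cell types overlapped (0.06 ± 0.26, edgeR adjusted p = 0.91), while the spermatid marker sum was 35570 and 42660 CPM in the first and 4554 and 3013 CPM in the second; the part of spermatid RNA in the level of Asb4 was not tested.

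Zdbf2 was highest in leptotene/zygotene. It had 94.6 and 92.1 CPM at day 7, then 215 and 274 CPM in leptotene/zygotene, then 103 and 106 CPM in pachytene. The leptotene/zygotene libraries were above all others, with a rise of 1.39 ± 0.30 from day 7 (edgeR adjusted p = 0.0016) and a fall of -1.23 ± 0.30 to pachytene (adjusted p = 0.017). Pachytene did not differ from day 7 past the threshold (0.16 ± 0.29, edgeR adjusted p = 0.62). The level of Zdbf2 moved with the spermatid marker sum between the 2 cell types, and the part of these cells in it was not tested. With plain library sizes the difference from day 7 was 0.00 ± 0.27 (edgeR adjusted p = 0.998), where the median over all genes was -1.71. The rise and the levels above are thus those on normalized library sizes, and the rise was not seen with plain ones.

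Rasgrf1, a guanine nucleotide exchange factor for Ras, was a rare transcript in testis, with 2.59 and 3.62 CPM at day 1, 1.53 and 0.488 CPM at day 3 and 0.607 and 1.17 CPM at day 7. It had 11.2 and 26.5 CPM in leptotene/zygotene and 3.46 and 7.43 CPM in pachytene. Both leptotene/zygotene libraries were above all testis libraries (4.46 ± 0.67 against day 7, edgeR adjusted p = 0.00017), as was the second pachytene library, while the first lay within the range of day 1 (2.64 ± 0.67 against day 7, adjusted p = 0.0048).

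Nespas, the paternally expressed antisense RNA of the Gnas locus, had 0.937 and 1.54 CPM at day 7, then 2.43 and 4.11 CPM in leptotene/zygotene, then 4.88 and 10.3 CPM in pachytene. These 3 stages did not overlap, although the 42 and 46 counts behind the first 2 are few (1.51 ± 0.57, edgeR adjusted p = 0.033, and 2.63 ± 0.54, adjusted p = 0.0015, for the 2 cell types against day 7). The leptotene/zygotene call was lost when any library of day 1, 3 or 7 or the second leptotene/zygotene library was left out (log2 change 0.96 to 1.73, edgeR adjusted p = 0.053 to 0.39), with upper-quartile factors (1.08, adjusted p = 0.10) and with plain library sizes (0.08 ± 0.56, adjusted p = 0.90). Gnas fell in the same cells, as given above. Kcnq1ot1, the noncoding RNA that silences its cluster on the paternal chromosome, had 35.9 and 32.4 CPM at day 7, then 59.3 and 30.7 CPM in leptotene/zygotene, then 22 and 25.6 CPM in pachytene, a difference within its error (0.37 ± 0.58, edgeR adjusted p = 0.57). Usp29 had 1.16 and 0.860 CPM at day 7 and 2.92 and 1.90 CPM in leptotene/zygotene (1.13 ± 0.59, edgeR adjusted p = 0.10).

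**Figure D4:**
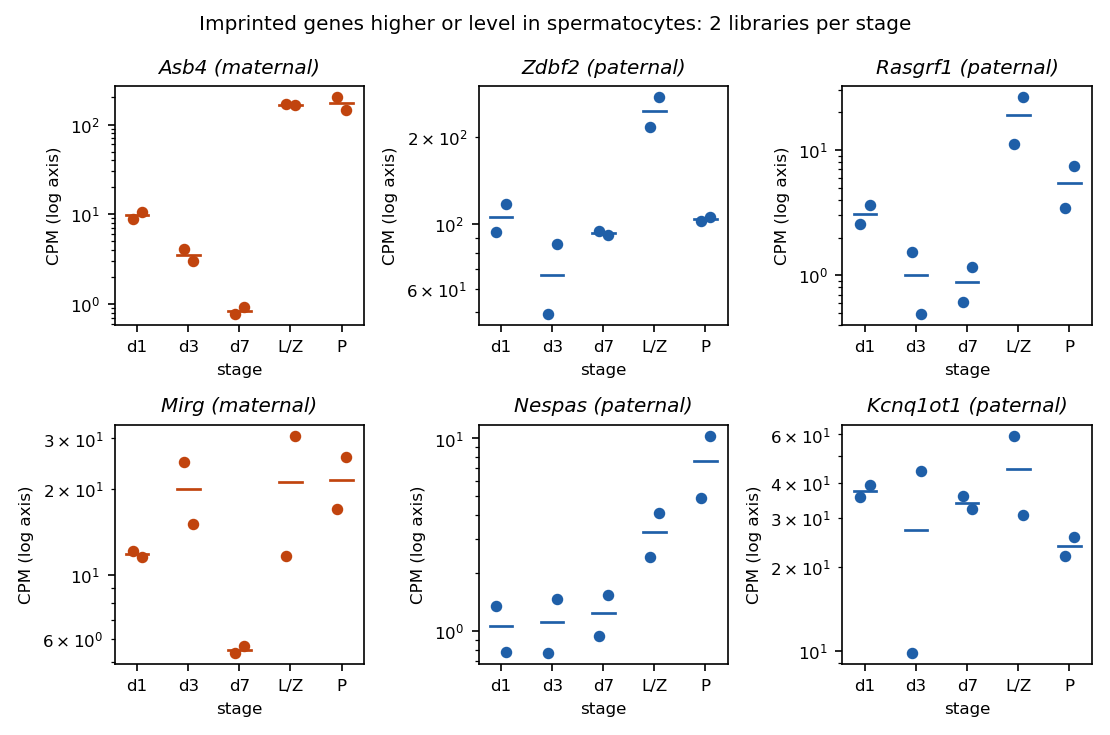
CPM (log axis) of 6 imprinted genes in both libraries (points) of each stage, with the stage mean (bar); d1, d3 and d7 are whole testis, L/Z leptotene/zygotene and P pachytene. Asb4 falls from about 10 to below 1 CPM over the first week and stands at 146 to 203 CPM in spermatocytes; Zdbf2 and Rasgrf1 peak in leptotene/zygotene, Nespas in pachytene, and the Kcnq1ot1 libraries overlap.

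At the Dlk1-Dio3 cluster the long noncoding RNAs parted ways. Meg3, Rian and Mirg are read from the maternal chromosome in the same direction, in that order. The miRNAs of the cluster lie within these genes or between their RefSeq spans. Those of miR-127-3p, miR-434-3p and miR-136-5p lie between Meg3 and Rian. The paternal chromosome expresses Dlk1 and Dio3. Meg3 had 1089 and 801 CPM at day 1, 868 and 847 CPM at day 3, 410 and 439 CPM at day 7, then 7.29 and 1.5 CPM in leptotene/zygotene, then 8.34 and 0.550 CPM in pachytene. Rian had 223 and 188, 281 and 229, 92.7 and 106, 2.43 and 0.901, and 2.03 and 0.413 CPM over the same stages. Both fell between day 7 and leptotene/zygotene (-7.01 ± 1.0 and -6.28 ± 0.57, edgeR adjusted p = 0.00012 and 6.1e-06). Mirg had 12.2 and 11.6 CPM at day 1, 24.8 and 15.1 CPM at day 3, 5.35 and 5.65 CPM at day 7, then 11.7 and 30.6 CPM in leptotene/zygotene, then 17.1 and 25.9 CPM in pachytene. It rose against day 7 in both cell types (2.0 ± 0.46, edgeR adjusted p = 0.0025, and 1.97 ± 0.45, adjusted p = 0.0029), but its spermatocyte libraries overlapped those of days 1 and 3. Without the second leptotene/zygotene library the rise was 1.06 ± 0.46 (edgeR adjusted p = 0.066), and with plain library sizes 0.58 ± 0.42 (adjusted p = 0.23). In the first library of each cell type Meg3 was the higher and Mirg the lower.

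The miRNA seeds of the cluster fell with Meg3 and Rian. All 52 tested seeds of Dlk1-Dio3 had negative log2 differences between leptotene/zygotene and day 7, and 49 of them were lower past the test, where 37.3% of 745 tested seeds were lower and 24.8% higher. Their summed share of the library was 7.55% and 7.64% at day 1, 10% and 9.41% at day 3, 6.37% and 6.49% at day 7, then 0.304% and 0.304% in leptotene/zygotene, then 0.285% and 0.283% in pachytene. On normalized library sizes the sums of the 2 leptotene/zygotene libraries lay further apart, at 3481 and 1816 CPM, as did those of pachytene, at 2801 and 1696 CPM. The median log2 difference was -4.68 over the 52 seeds and -0.91 over all seeds. Leaving out the first leptotene/zygotene library, with 820461 of the stage's reads against 119746 in the second, cut the calls over all imprinted-locus seeds from 56 to 28 of 59.

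The seed of miR-127-3p was the most abundant of the cluster, with 54500 and 66900 CPM at day 1, 108500 and 73960 CPM at day 3, 46000 and 45410 CPM at day 7, then 2303 and 1013 CPM in leptotene/zygotene, then 1264 and 769 CPM in pachytene (-4.78 ± 0.55 from day 7, edgeR adjusted p = 3.9e-05). miR-434-3p had 6398 and 5984 CPM at day 7 and 120 and 160 CPM in leptotene/zygotene (-5.48 ± 0.60, edgeR adjusted p = 2.7e-05). miR-381-3p had 1882 and 2157 CPM and then 68.4 and 29.9 CPM (-5.27 ± 0.56, edgeR adjusted p = 2.3e-05). miR-541-5p fell less, from 4411 and 4659 CPM to 553 and 379 CPM (-3.28 ± 0.54, edgeR adjusted p = 0.00048), and had 1095 and 419 CPM in pachytene.

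miR-541-5p and both arms of miR-409 lie within the gene span of Mirg (chr12:109734981-109749458, RefSeq GRCm38.p6, plus strand), the member RNA that rose. Grouping the seeds by that span was done after their values had been seen and carries no test. The 8 tested seeds inside Mirg had a median log2 difference of -2.46 against day 7 (range -4.07 to -1.73, 7 called lower). The 44 elsewhere in the cluster had a median of -5.25 (range -10.22 to -1.32, 42 called lower). With the 14 that had no read in leptotene/zygotene set to their bound it was -3.94 (range -6.19 to -0.71). The ranges inside and elsewhere thus overlapped. Among seeds of at least 100 CPM the medians were -2.86 over 4 seeds and -4.99 over 19, or -4.78 with 2 of the 19 at their bound. Summed, the seeds inside Mirg went from 5235 and 5476 CPM at day 7 to 709 and 479 CPM in leptotene/zygotene and 1261 and 652 CPM in pachytene. Those elsewhere went from 59360 and 59490 CPM to 2766 and 1332 CPM and then 1537 and 1044 CPM. The second sum was 11.3 and 10.9 times the first at day 7, 3.90 and 2.78 times in leptotene/zygotene and 1.22 and 1.60 times in pachytene. Most of the sum inside Mirg was the seed of miR-541-5p. It alone had 4411 and 4659 CPM at day 7, 553 and 379 CPM in leptotene/zygotene and 1095 and 419 CPM in pachytene.

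**Figure D5:**
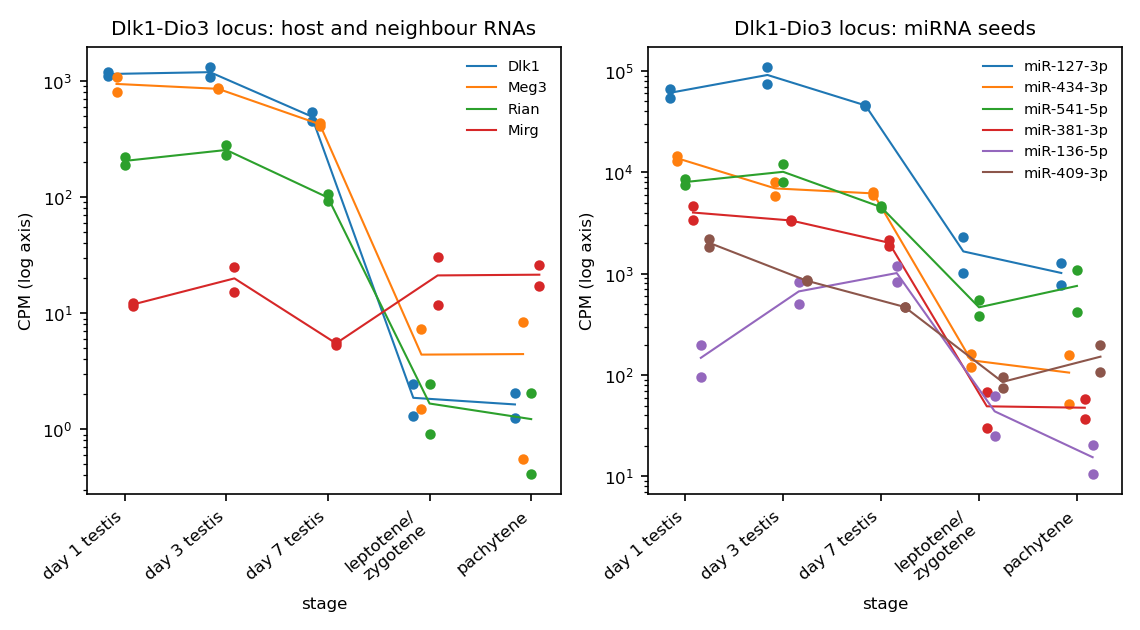
CPM (log axis) by stage of 4 RNAs of the Dlk1-Dio3 cluster (left) and of 6 of its miRNA seeds (right); points are libraries and lines join stage means. Dlk1, Meg3 and Rian fall to below 10 CPM in spermatocytes while Mirg stands at 11.7 to 30.6 CPM, and miR-409-3p and miR-541-5p, from within Mirg, fall less than miR-127-3p, miR-434-3p and miR-381-3p.

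Within testis the seeds moved in both directions. Between day 1 and day 7, 3 of the 59 seeds rose and 8 fell (8.32% and 5.64% of all seeds). miR-136-5p went from 200 and 96.3 CPM at day 1 through 504 and 833 CPM at day 3 to 834 and 1195 CPM at day 7 (2.78 ± 0.56, edgeR adjusted p = 0.012), and then to 62.8 and 24.9 CPM in leptotene/zygotene. miR-409-3p went the other way over the first week, from 1851 and 2195 CPM through 864 and 841 CPM to 473 and 467 CPM (-2.11 ± 0.44, edgeR adjusted p = 0.012). The calls of both seeds were lost without the second day 1 library or either day 7 library, with log2 changes of 2.40 to 3.09 and -2.04 to -1.93. Between day 3 and day 7 the 1 seed called was that of miR-409-5p, from 284 and 752 CPM to 97.5 and 83.1 CPM (-2.52 ± 0.50, edgeR adjusted p = 0.014; 0.268% of all seeds lower and 3.89% higher), a call lost without the second day 3 library (-1.59) or either day 7 library (-2.59 and -2.34). Between day 1 and day 3 edgeR called none of the 745 seeds (0%), with 14 of the 59 and 144 of all seeds at an unadjusted p under 0.05; DESeq2 called 10 of the 59.

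The seeds of the Gnas cluster miRNAs took a different course. miR-296-5p had 51.1 and 60.7 CPM at day 7, then 226 and 120 CPM in leptotene/zygotene, then 203 and 111 CPM in pachytene. All 4 spermatocyte libraries were above all testis libraries, which reached 78.5 CPM (1.66 ± 0.47 in leptotene/zygotene, edgeR adjusted p = 0.0099). That call was lost without the first day 7 library (1.78 ± 0.68, edgeR adjusted p = 0.053) and with no filter on low counts (1.11 ± 0.47, adjusted p = 0.11). The other arm, miR-296-3p, fell instead, from 47.2 and 44.5 CPM to 8.37 and 4.99 CPM (-2.61 ± 0.54, edgeR adjusted p = 0.0018, on 7 counts). miR-298-5p had 1156 and 1113 CPM at day 7, then 289 and 215 CPM in leptotene/zygotene, then 1116 and 774 CPM in pachytene. It fell in leptotene/zygotene (-2.16 ± 0.44, edgeR adjusted p = 0.0016), and pachytene did not differ from day 7 past the threshold (-0.26 ± 0.42, adjusted p = 0.62). Their host transcript Nespas had its highest level in pachytene, as given above. miR-335-5p, from Mest, had 463 and 416 CPM at day 7 and 8.37 and 4.99 CPM in leptotene/zygotene (-5.88 ± 0.62, edgeR adjusted p = 2.3e-05), beside -5.48 ± 0.39 for the RNA of Mest. The seeds of the H19/Igf2 cluster, miR-675-5p and miR-483-5p, had 8 and 0 counts in leptotene/zygotene and 3 and 41 at day 7. On these few counts miR-675-5p was called higher (log2 difference 5.08) and miR-483-5p lower, where 24.8% and 37.3% of all seeds were. The RNA of H19, the host of miR-675-5p, fell between the same stages, and the seed had 0 counts in pachytene.

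Between leptotene/zygotene and pachytene few imprinted genes were called. Several had too few reads in both cell types for a change to be called. Airn, for example, had 4 counts and then 3, and Magel2 had 0 in both. The test called Grb10 higher and Zdbf2 lower, where 9.03% of all genes were higher and 13.2% lower. Grb10 had 33.5 and 30.3 CPM in leptotene/zygotene and 75.4 and 67.0 CPM in pachytene, without overlap (1.16 ± 0.22, edgeR adjusted p = 0.0067). Mest (2.43 and 1.40 against 5.49 and 2.89 CPM), Mkrn3 (0.972 and 0.401 against 4.07 and 1.24 CPM) and Rasgrf1 were near the threshold (1.29, 2.25 and -1.82, edgeR adjusted p = 0.054, 0.050 and 0.056), and DESeq2 called all 3. Sertoli and Leydig marker sums were higher in pachytene as well (350 and 251 against 184 and 64.0 CPM, and 39.5 and 38.1 against 20.4 and 5.81 CPM), while macrophage sums (4.27 and 3.71 against 19 and 12.3 CPM) were lower. Peritubular (63.2 and 37.3 against 104 and 46.4 CPM), stromal (26.2 and 8.53 against 50.1 and 23.5 CPM) and endothelial sums (43.9 and 16.0 against 45.2 and 14.8 CPM) overlapped between the 2 cell types. The part of these cells in the change of Grb10 was not tested. A fit on these 4 libraries alone called no member (Grb10 1.29 ± 0.31, edgeR adjusted p = 0.068, and Zdbf2 -1.08 ± 0.26, adjusted p = 0.069). The call of Zdbf2 was also lost without either day 7, either pachytene or the second leptotene/zygotene library (-1.26 to -1.03, adjusted p = 0.053 to 0.074). Of the imprinted-locus seeds edgeR called none (0.268% of all seeds lower, 0.134% higher); at an unadjusted p under 0.05 there were 3, and with DESeq2 1 was called.

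Maternally and paternally expressed genes had similar median differences between day 7 whole testis and purified leptotene/zygotene cells. From day 7 to leptotene/zygotene 9 of 11 maternal genes fell and 2 rose, and 17 of 22 paternal genes fell and 3 rose; the medians were -4.30 and -4.19 on the log2 scale, beside -0.31 over all genes, of which 42% fell and 36.5% rose. From day 1 to day 7 the medians were -1.05 for maternal and -0.60 for paternal genes, beside 0 over all genes, with 2 lower and 1 higher called of 11 and 3 lower of 22 (2.28% and 1.08% of all genes). From day 3 to day 7 they were -1.01 and -0.52, and from day 1 to day 3 -0.15 and -0.21. From leptotene/zygotene to pachytene they were 0.25 and 0.00, and without any 1 library they ranged from -0.14 to 0.90 and from -0.34 to 0.41. No test compares the 2 sets, whose members share clusters and control regions. Split by the germ line in which the locus is methylated, 6 of the 9 members at sperm-methylated loci fell in leptotene/zygotene and 3 rose (Mirg, Zdbf2 and Rasgrf1), and 20 of 24 at oocyte-methylated loci fell and 2 rose (Asb4 and Nespas). The same shares of all genes, 42% lower and 36.5% higher, apply to both.

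Other genes described as imprinted, most of them only in placenta, brain or single tissues, were called between day 7 testis and leptotene/zygotene in shares near those of all genes. Of the 41 that the RNA data cover, 32 were tested, and from day 7 to leptotene/zygotene 12 fell and 11 rose (42% and 36.5% of all genes), with a median of -0.38 on the log2 scale, beside -0.31 over all genes. Slc22a18, an organic cation transporter gene next to Phlda2, had 0.221 and 0.184 CPM at day 7 and 13.1 and 39.8 CPM in leptotene/zygotene (7.01 ± 0.77, edgeR adjusted p = 2.2e-05). Osbpl5, a lipid-binding protein gene of the same cluster, had 43.6 and 39.5 CPM and then 0.972 and 0.300 CPM (-6.54 ± 0.55, edgeR adjusted p = 3.7e-06). Rtl1, the retrotransposon-derived gene of Dlk1-Dio3, had 59 counts over both day 7 libraries and 0 in leptotene/zygotene, at least 6.88-fold lower. Pon3, a paraoxonase gene, had 259 counts and then 1. Cdkn1c, an inhibitor of the cell cycle, had 31.9 and 35.5 CPM at day 7, then 14.1 and 34.8 CPM in leptotene/zygotene, then 5.08 and 5.37 CPM in pachytene, and fell between the last 2 (-2.28 ± 0.41, edgeR adjusted p = 0.0050). At that step 2 of the 32 rose and 5 fell (9.03% and 13.2% of all genes), among the latter Slc22a3, a transporter gene (-2.92 ± 0.51), Peg13 (-1.32 ± 0.23), a noncoding RNA, and Atp10a (-1.24 ± 0.28), a lipid flippase gene. Klf14, a transcription factor gene, fell between day 1 and day 7 (-2.98 ± 0.57, edgeR adjusted p = 0.033), as did Ampd3 (-1.41 ± 0.30), an AMP deaminase gene, where 2.28% of all genes fell, and Klf14 was the 1 gene of the list called between day 3 and day 7.

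Of 15 tested genes that set or keep imprints, 7 fell and 4 rose from day 7 to leptotene/zygotene, where 42% and 36.5% of all genes did. Dnmt3a, a methyltransferase that lays down new marks, had 285 and 280 CPM at day 7, then 15.6 and 7.41 CPM in leptotene/zygotene, then 12.8 and 4.68 CPM in pachytene (-4.73 ± 0.50, edgeR adjusted p = 1.7e-05). Its cofactor Dnmt3l had 4.19 and 8.62 CPM at day 1, 0.386 and 0.553 CPM at day 7 and 5.83 and 19.8 CPM in leptotene/zygotene, a fall of -3.76 ± 0.84 from day 1 to day 7 (edgeR adjusted p = 0.044) and then a rise of 4.85 ± 0.86 (adjusted p = 0.00050). Dnmt1, which copies marks at replication, had 261 and 228 CPM, then 35.0 and 25.8 CPM, then 103 and 143 CPM (-3.03 ± 0.28 and 2.03 ± 0.27, edgeR adjusted p = 7.3e-06 and 0.0017). Prmt7, an arginine methyltransferase, rose (2.24 ± 0.40 in leptotene/zygotene, edgeR adjusted p = 0.00054). Zfp57, which protects imprints in the embryo, had 26.3 and 21.2 CPM at day 7, then 95.3 and 115 CPM in leptotene/zygotene, then 59.0 and 43.2 CPM in pachytene, with a fall of -1.05 ± 0.26 at the last step (edgeR adjusted p = 0.019), where Setdb1, a histone methyltransferase, rose (0.80 ± 0.25). Ctcfl, the germ-line paralogue of the insulator protein CTCF, was the 1 gene of this list called between day 3 and day 7 (2.10 ± 0.42, edgeR adjusted p = 0.046).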

How the data were processed

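The authors deposited read counts per gene for RNA and read counts per seed for small RNA, as 1 table each for 10 libraries; the tools HTSeq 0.6.1, edgeR 3.6.8, Bowtie 0.12.7 and BWA 0.7.8 and the build mm9 are named, with no role, in the submitters' processing notes. The 5 summary rows of the RNA table, 44.7% to 64.5% of a library's reads, were left out of library sizes and tests. All 10 libraries of an assay entered 1 fit by edgeR 4.0.16 (R 4.3.3) with TMM factors, filterByExpr at a minimum count of 10 and the quasi-likelihood F-test, adjusted by Benjamini-Hochberg over 16872 genes or 745 seeds; standard errors are the log2 fold change over the root of F. The fit was tested on simulated counts. Alternatives were DESeq2 1.42.0, other scalings, no filter, a replicate block, subsets of stages and leaving out each library; pachytene in place of leptotene/zygotene was added after seeing the data. Depth limits the spermatocytes most: 3 counts correspond to 1.46 and 0.300 CPM in the leptotene/zygotene RNA libraries and 4.19 and 15.0 CPM in the small RNA ones; floors and count intervals cover counting error only. The members, marker lists and tests were chosen with earlier results of these data known, and no p is adjusted over a list alone. Values per library are given for members with a stage mean of at least 10 CPM and seeds of at least 100 CPM that a result turns on, and for the members called; other imprinted genes and regulators are named by size among those past the test, up to 4 per comparison, with Cdkn1c and Rtl1 always; Zfp57 at day 7, and the seeds grouped by Mirg, were chosen after their values were seen. Promoter and miRNA sequences and their coordinates are of GRCm38.p6, not of the authors' build.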

Additional observations from a re-analysis of the deposited data

How the results depend on the processing

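No call changed direction with the processing; the number of calls did change. The count of imprinted genes called moved from 4 to 12 (fit on the stages compared only), 16 (whole-testis libraries only) and 10 (DESeq2) for day 7 against day 3, and from 6 to 25 and 15 under the first 2 of these for day 7 against day 1. For day 3 against day 1 DESeq2 called 1 in place of 0. For pachytene against leptotene/zygotene the count of 2 became 4 with upper-quartile factors, 6 with plain library sizes, 4 with no filter, 0 with only the stages compared and 5 with DESeq2. For day 7 testis against leptotene/zygotene it was 29 to 33 under these alternatives. Without 1 library at a time the counts were 0 to 0, 0 to 8, 0 to 8, 28 to 33 and 1 to 7 in the order day 3 against day 1, day 7 against day 3, day 7 against day 1, leptotene/zygotene against day 7 and pachytene against leptotene/zygotene. The median log2 change of paternal genes was -0.59 (median-ratio factors), -0.46 (plain sizes) and -0.59 (DESeq2) for day 7 against day 3; -0.66, -0.65 (upper-quartile), -0.67 (DESeq2) and -0.71 (Grb10 and Inpp5f left out) for day 7 against day 1; and -5.57 (plain sizes) for leptotene/zygotene against day 7. Without 1 library at a time the medians of maternal and paternal genes were, in the same order of comparisons, -0.15 to 0.03 and -0.21 to -0.12; -1.22 to -1.01 and -0.76 to -0.51; -1.18 to -1.0 and -0.66 to -0.53; -5.37 to -4.31 and -4.80 to -4.12; -0.14 to 0.90 and -0.34 to 0.41. Of 59 imprinted-locus seeds, the 0 called for day 3 against day 1 became 7 (no filter), 3 (stages compared only), 14 (testis only) and 10 (DESeq2). The 1 for day 7 against day 3 became 13 (median-ratio), 3 (upper-quartile), 2 (no filter), 17 (stages compared only), 15 (testis only) and 32 (DESeq2). The 11 for day 7 against day 1 became 20 (median-ratio), 5 (plain sizes), 4 (no filter), 30 (stages compared only), 23 (testis only) and 33 (DESeq2), and DESeq2 called 1 for pachytene against leptotene/zygotene. Without 1 library at a time the seed counts were 0 to 5, 0 to 17, 0 to 19, 28 to 59 and 0 to 0. The cause of these shifts was not tested. The labels do not tie replicate numbers to shared animals or batches, and same-numbered libraries did not deviate together in every pair of stages, so they were not taken as pairs: the correlation of deviations was 0.6 for leptotene/zygotene with pachytene RNA, -0.0982 to 0.0219 for the other 9 RNA pairs and -0.104 to 0.126 for small RNA. With a replicate block the imprinted genes called were 0, 4, 6, 32 and 3 (1 higher and 2 lower, against 1 and 1 without it, the added one being Rasgrf1), and the seeds 4 for day 7 against day 1.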
